A study of Mus musculus with 6 samples.

Results

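MicroRNA genes were examined in early mammary tumors of MMTV-PyVmT mice that had or lacked JAM-A. The array annotation paired 298 probe sets with exactly 1 symbol of a microRNA gene (symbols that begin with Mir and a number, or with Mirlet7, host transcripts left out), and keeping the brightest probe set of each gene gave 296 microRNA genes among 35557 probe sets of any kind. The JAM-A-/- group held 3 tumors, numbered 5333, 5346 and 5347 and labelled JamA- with the genotype MMTV-PyMT JAM-A KO, and the JAM-A+/+ group held 3 tumors, numbered 5369, 5370 and 5393 and labelled JamA+ with the genotype MMTV-PyMT. All 6 tumors carried the polyoma middle T oncogene, which the MMTV promoter drives in mammary epithelium, so the JAM-A+/+ tumors are oncogene-driven as well, whereas JAM-A was missing from every cell of the JAM-A-/- animals. Age at resection and strain are not given for these tumors, and the sources do not state that each tumor is from a different mouse, and p-values then measure only the spread between these 6 tumors. The tissue label of tumor 5347 does not say that JAM-A is missing, but its title and genotype do.

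MicroRNAs are short RNAs cut from hairpins within longer primary transcripts, first in the nucleus by Drosha with Dgcr8 and then in the cytoplasm by Dicer1. Loaded into an Argonaute protein, they bind messenger RNAs mainly through their seed, the bases 2 to 8 from the 5′ end, and lower the stability and translation of those messages. In mammary epithelium the miR-200 family is known for keeping epithelial identity, let-7 for restraining growth, and the miR-17-92 cluster for promoting it. The array used here, Affymetrix Mouse Gene 1.0 ST, measures labelled total RNA with short probes to the precursor region of each microRNA gene. Its values (log2 RMA signal, background-corrected and normalized between arrays) therefore describe the hairpin and primary transcript, and mature microRNAs were not measured. RefSeq (GRCm38.p6) held a hairpin sequence for 258 of the 296 genes and a mature sequence for 270.

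The mature sequences of the microRNA genes on which the comparison turned are shown in groups with the seed in capitals, since genes of 1 seed address overlapping sets of messages. The miR-17-92 cluster on chromosome 14 carries 2 seed groups that include members lower in JAM-A-/- tumors, with Mir17 at chr14:115043671-115043754 and Mir19b-1 at chr14:115044305-115044391, plus strand.
miR-17-5p: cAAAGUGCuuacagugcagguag
miR-20a-5p: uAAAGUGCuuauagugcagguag
miR-19a-3p: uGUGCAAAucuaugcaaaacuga
miR-19b-3p: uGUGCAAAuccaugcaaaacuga

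MiR-15b (Mir15b, chr3:69009772-69009835, plus strand) and miR-16 (Mir16-1, chr14:61631880-61631972, minus strand) share their seed across 2 loci.
miR-15b-5p: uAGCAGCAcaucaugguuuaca
miR-16-5p: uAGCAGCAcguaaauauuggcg

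The miR-200 family has 2 seeds that differ at 1 base, and each of its 2 loci contributes a member to both. Mir200b lies at chr4:156055681-156055750 and Mir200c at chr6:124718322-124718390, both on the minus strand.
miR-200b-3p: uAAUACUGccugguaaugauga
miR-200c-3p: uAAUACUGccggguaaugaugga
miR-200a-3p: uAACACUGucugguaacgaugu
miR-141-3p: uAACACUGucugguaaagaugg

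Further microRNAs are shown because their genes had the largest differences or because the same mature form comes from a second locus that did not meet the criteria. Mirlet7c-1 lies at chr16:77599657-77599750 (plus), Mir687 at chr14:73206763-73206851 (minus), Mir103-2 at chr2:131288052-131288137 (plus), Mir30c-2 at chr1:23291701-23291784 (plus), Mir7-1 at chr13:58392779-58392886 (minus), Mir490 at chr6:36421742-36421825 (plus) and Mir452 at chrX:72262224-72262308 (minus).
let-7c-5p: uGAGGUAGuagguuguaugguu
miR-687: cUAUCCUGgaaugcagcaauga
miR-103-3p: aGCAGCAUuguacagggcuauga
miR-30c-5p: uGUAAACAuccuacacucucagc
miR-7a-5p: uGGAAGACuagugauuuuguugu
miR-490-3p: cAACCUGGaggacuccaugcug
miR-452-5p: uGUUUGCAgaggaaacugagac

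The comparison of JAM-A-/- with JAM-A+/+ tumors asks which microRNA genes change when the adhesion molecule is lost. Of the 296 microRNA genes, 20 were lower and 2 were higher in JAM-A-/- tumors by the criteria used throughout, a change of 1.3-fold or more together with an unadjusted p below 0.05 (limma). No microRNA gene passed the Benjamini-Hochberg adjustment over all probe sets (limma). An unadjusted p under 0.05 was found for 33 of the 296 microRNA genes and for 3871 of all 35557 probe sets. The smallest adjusted p of a microRNA gene was 0.198, for Mir687. Across all probe sets 0.00281% passed that adjustment, a single one, which belongs to F11r, the gene of JAM-A. Its log2 signal was 5.91, 5.55 and 6.53 in JAM-A-/- tumors and 10.10, 10.23 and 10.47 in JAM-A+/+ tumors (difference -4.27 ± 0.24, SE, adjusted p = 0.00667), and the groups were far apart in the direction of the labels.

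The lower calls made up 6.76% of the microRNA genes, against 4.35% of all probe sets, and the higher calls 0.676%, against 3.95%. The array annotation divides these backgrounds sharply. Among probe sets with 1 gene symbol 4.57% were higher and 0.647% lower, whereas among those that the annotation does not list 2.74% were higher and 11.4% lower. Thus the share of lower microRNA genes lay between these classes. Probe set values of the 3 JAM-A-/- tumors did not overlap those of the 3 JAM-A+/+ tumors for 39 microRNA genes on the lower side, against 6.1% of all probe sets, and for 20 on the higher side, against 9.74%. These correspond to 13.2% and 6.76% of the microRNA genes. The same shares were 12.3% and 5.94% of probe sets that the annotation does not list, and 2.73% and 11.95% of those with 1 symbol. The microRNA shares were thus close to those of the unlisted probe sets. The median log2 difference (JAM-A-/- minus JAM-A+/+) was -0.03 over the microRNA genes, 0.05 over all probe sets and 0.09 over probe sets with 1 symbol, and 173 microRNA genes lay below 0 and 123 above. Centring each array on its median moved the microRNA median to 0.02 and that of all probe sets to 0.11, so that the sign of the microRNA median depended on the scaling. Its distance from the median of all probe sets was -0.09 in the reported fit and -0.05 after quantile normalization over all probe sets.

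**Figure D1:**
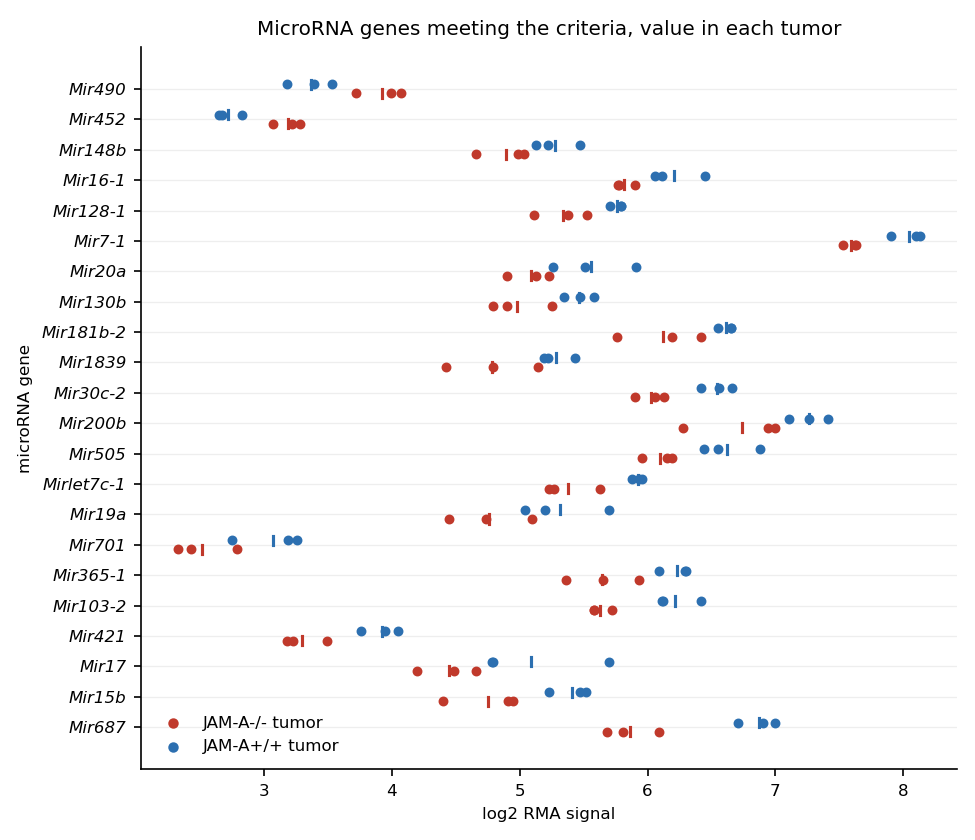
Log2 RMA signal (horizontal axis) of the 22 microRNA genes that met the criteria (vertical axis), with 1 point per tumor, red for JAM-A-/- and blue for JAM-A+/+, and short bars for the group means. Mir490 and Mir452 are higher in all 3 JAM-A-/- tumors, the other 20 genes have lower means there, and the groups overlap in Mir19a and Mir701.

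The differences went with the brightness of the probe sets. In 108 microRNA genes with a mean log2 signal under 4, the median difference was 0.10, with 2 higher and 2 lower calls. In 109 genes with a signal from 4 to under 6 it was -0.08, with 0 higher and 11 lower, and in 79 genes at 6 or more it was -0.09, with 0 higher and 7 lower. The lower calls were 1.85%, 10.1% and 8.86% of the microRNA genes in these classes, against 2.08%, 6.28% and 3.89% of all probe sets and 4.09%, 13.99% and 12.9% of probe sets that the annotation does not list. The median differences of all probe sets in the same classes were 0.08, -0.01 and 0.09, those of probe sets with 1 symbol were 0.09, 0.03 and 0.12, and those of unlisted probe sets were 0.06, -0.13 and -0.03. The microRNA genes thus had the same signs as the unlisted probe sets. The brightest class is not matched in signal, since its microRNA genes had a median signal of 6.71 and all its probe sets of 8.09. Across the 258 genes with a hairpin sequence, signal and difference had a Pearson's r of -0.46 (Spearman's rho -0.52). The signal in turn followed the share of G and C in the hairpin (r = 0.73, rho = 0.74), while this share and the difference had r = -0.16 and rho = -0.25. All these points share the same 6 arrays, and the part of base composition in the differences was not tested.

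**Figure D2:**
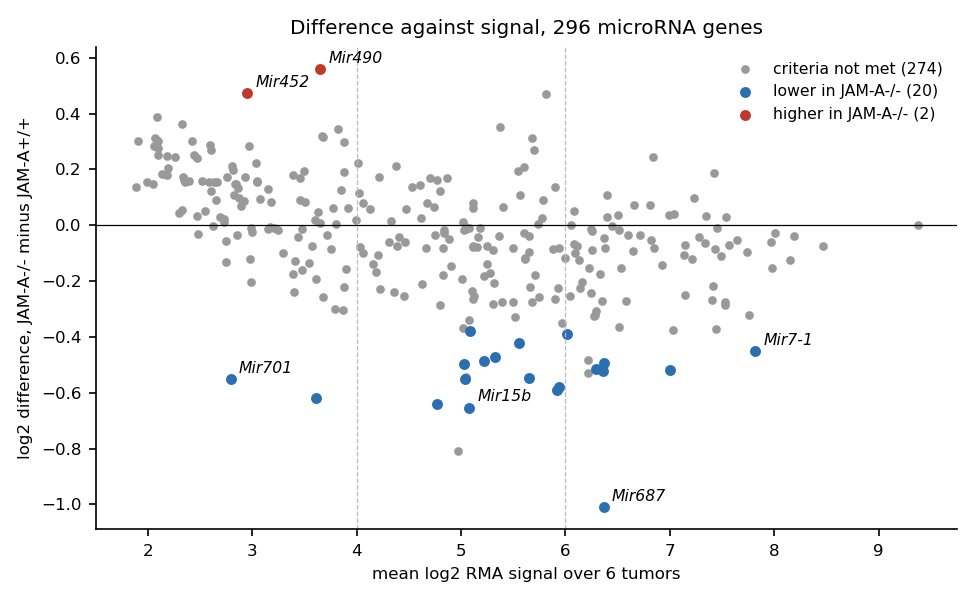
Log2 difference between JAM-A-/- and JAM-A+/+ tumors (vertical axis) against the mean log2 RMA signal over 6 tumors (horizontal axis) for 296 microRNA genes, with dashed lines at 4 and 6. Of 20 lower calls 18 lie at a signal of 4 or more, and the 2 higher calls, Mir452 and Mir490, lie under 4.

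MicroRNAs known from mammary tissue and tumors were represented by 61 of 77 listed genes. Their median log2 signal was 5.02, close to the 4.89 of the other 235 microRNA genes and below the 6.27 of all probe sets. Within the list, the signal ran from 2.26 for Mir206, a muscle microRNA that represses the estrogen receptor, to 7.41 for Mir200a of the epithelial miR-200 family. Mir210, the hypoxia-induced microRNA, had a signal of 7.28 and Mir25 of 7.23. MicroRNAs named for other tissues (19 of 23 listed, from liver, brain, pancreas, heart and skeletal muscle) had a lower median signal of 3.88, but Mir375, a microRNA of pancreatic islets, reached 6.40 and Mir219a-1, of the brain, 6.66. Each gene is read by its own probes, and the signal moved with the base composition of the hairpin. These levels are therefore descriptions and were not tested. Of the known mammary microRNA genes 6 were lower (9.84%), 0 were higher by limma, with 8 at an unadjusted p under 0.05, and the median difference was -0.12. Among the other microRNA genes 14 were lower (5.96%) and 2 higher, with a median of -0.02. The difference between these groups was not tested.

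The miR-17-92 cluster, a Myc-induced primary transcript that promotes proliferation and survival, held 3 of the 6 lower mammary microRNA genes. All 5 of its measured microRNA genes had a lower mean in JAM-A-/- tumors, with a median difference of -0.54. Mir17 had a log2 signal of 4.66, 4.49 and 4.20 in JAM-A-/- tumors and of 4.78, 4.79 and 5.70 in JAM-A+/+ tumors. The groups did not overlap, but 1 JAM-A+/+ tumor, 5393, stood far above the other two, and the difference was -0.64 ± 0.26 (SE, adjusted p = 0.444). Mir20a, with the same seed as Mir17, had 5.13, 4.90 and 5.23 against 5.26, 5.51 and 5.91 and a difference of -0.47 ± 0.18 (adjusted p = 0.432). Mir19a, whose product is the main oncogenic member of the cluster, had 5.10, 4.45 and 4.74 against 5.20, 5.04 and 5.70 and a difference of -0.55 ± 0.22 (adjusted p = 0.441). Tumor 5393 was again the highest in both genes, and the groups of Mir19a overlapped. Mir19b-1 (-0.54) and Mir18 (-0.33) did not meet the criteria. The host transcript Mir17hg, which the definition of the microRNA genes leaves out, had 5.69, 5.92 and 5.55 against 6.06, 6.09 and 6.21, a difference of -0.40 ± 0.13 that met the criteria (adjusted p = 0.389), with tumor 5393 close to the other JAM-A+/+ tumors. A probe set that the annotation gives to both Mir92-1 and Mir17hg had 5.91, 5.41 and 5.65 against 6.09, 6.41 and 6.65. Without tumor 5393 the differences of Mir17, Mir19a and Mir20a were -0.34, -0.36 and -0.30 and none of them met the criteria. All 3 genes also lost their calls under the equal-variance test, the Welch test, quantile normalization over all probe sets and centring on array medians. Their calls were lost in 3, 4 and 4 of the 6 fits that left out a tumor, JAM-A-/- tumors included, with differences from -0.80 to -0.34 for Mir17, from -0.72 to -0.36 for Mir19a and from -0.62 to -0.30 for Mir20a.

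**Figure D3:**
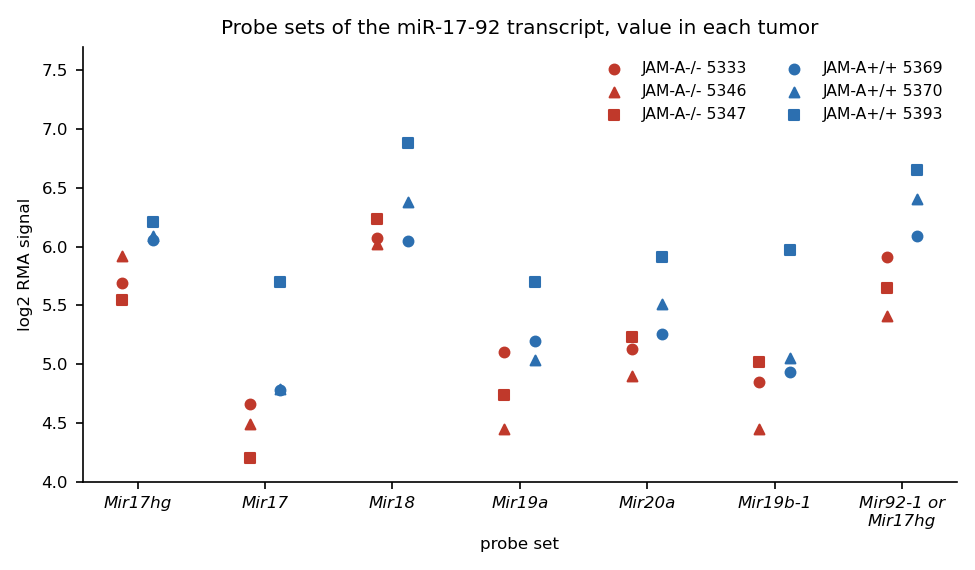
Log2 RMA signal (vertical axis) of the 7 probe sets of the miR-17-92 transcript (horizontal axis), with red for JAM-A-/- and blue for JAM-A+/+ tumors and a symbol for each tumor. Tumor 5393 is highest in every probe set, by the widest margin in Mir17, Mir18, Mir19a and Mir19b-1, and all JAM-A-/- tumors lie below all JAM-A+/+ tumors in Mir17hg, Mir17, Mir20a and the shared Mir92-1 probe set.

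The paralogous clusters gave no call. In miR-106b-25, embedded in the replication gene Mcm7, Mir93 and Mir106b had differences of -0.28 and -0.22 and Mir25 of 0.10. The 5 measured genes of miR-106a-363 on the X chromosome had signals from 2.86 to 4.21 and differences from -0.12 to 0.13. Of the 6 microRNA genes that share the seed AAAGUGC across these 3 clusters, 5 lay below 0 and 2 were lower, Mir17 and Mir20a.

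The miR-15/16 group, known for repressing Bcl2 and G1 cyclins, had 6 measured genes with the seed AGCAGCA, of which 5 lay below 0 and 2 were lower. Mir15b had a log2 signal of 4.91, 4.95 and 4.40 in JAM-A-/- tumors and of 5.52, 5.47 and 5.23 in JAM-A+/+ tumors. The groups did not overlap, and the difference of -0.65 ± 0.18 (adjusted p = 0.323) was the second largest among microRNA genes that met the criteria. Mir16-2, its neighbour in the same cluster, had 4.29, 4.44 and 4.26 against 4.74, 4.97 and 4.04 and did not meet the criteria (-0.25). At the other locus, Mir16-1 had 5.90, 5.78 and 5.77 against 6.11, 6.45 and 6.06, and a difference of -0.39 ± 0.14 (adjusted p = 0.410). Its neighbour Mir15a was at -0.37, just under the minimum fold. The call of Mir15b was kept without any 1 of the 6 tumors, whereas that of Mir16-1 was lost without tumor 5346, 5347 or 5370, with differences from -0.46 to -0.27.

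All 9 let-7 genes measured with probe sets of their own had lower means in JAM-A-/- tumors, with a median difference of -0.25, and 1 met the criteria. Of all microRNA genes 6.76% were lower. Below 0 lay 77 of the 109 microRNA genes at a signal from 4 to under 6, and 64 of the 79 at 6 or more. This family restrains Ras, Myc and Hmga2. Mirlet7c-1 had a log2 signal of 5.27, 5.23 and 5.63 against 5.88, 5.93 and 5.96. The JAM-A+/+ tumors lay close together above all JAM-A-/- tumors, and the difference was -0.55 ± 0.14 (adjusted p = 0.297). Mir99a, in the same cluster on chromosome 16, had a difference of -0.32. The cluster of Mirlet7a-1, Mirlet7d and Mirlet7f-1 on chromosome 13 had differences of -0.27, -0.36 and -0.48. For Mirlet7f-1 this rested on tumor 5369, with 7.12 against 5.92 to 6.29 in the other 5 tumors. The smallest difference among these 9 genes was -0.06, for Mirlet7a-2. Left out were probe sets that the annotation gives to both a let-7 gene and Lncppara. That of Mirlet7c-2 went the other way (0.10), that of Mirlet7b had -0.19, and neither met the criteria. Lin28a and Lin28b, which block let-7 maturation, had differences of -0.26 and -0.14 that did not meet the criteria.

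Of the miR-200 family, whose known role is to repress Zeb1 and Zeb2 and so hold the epithelial state, 4 of 5 genes were measured with probe sets of their own. All lay below 0, with a median of -0.30, and Mir200b was lower. It had a log2 signal of 6.94, 6.28 and 7.00 in JAM-A-/- tumors and of 7.26, 7.11 and 7.41 in JAM-A+/+ tumors. The groups did not overlap, and the difference was -0.52 ± 0.21 (adjusted p = 0.435). Without tumor 5346, the lowest, it was -0.29, and the call was also lost without tumor 5369 (-0.52) or 5393 (-0.45). Mir200a, in the same transcript, had a difference of -0.27 with overlapping groups. At the other locus the groups also overlapped. Mir141 (-0.34) had 5.29, 4.57 and 4.87 against 5.05, 4.75 and 5.95. Mir200c (-0.18) had 6.05, 5.29 and 5.51 against 5.75, 5.23 and 6.41. In both genes tumor 5393 stood far above the other JAM-A+/+ tumors, which did not exceed the highest JAM-A-/- tumor. The targets Zeb1 (0.17) and Zeb2 (-0.01) did not meet the criteria. Markers of luminal epithelium were bright in every tumor (5 of 5, mean log2 signal 11.02 to 12.55). All 5 had differences above 0, with a median of 0.17, opposite in sign to the miR-200 genes, and none met the criteria. At a signal of 6 or more, 75.8% of probe sets with 1 symbol also lay above 0, while 64 of 79 microRNA genes lay below 0. In bulk tumors fewer cells of a type and less RNA per cell cannot be told apart.

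**Figure D4:**
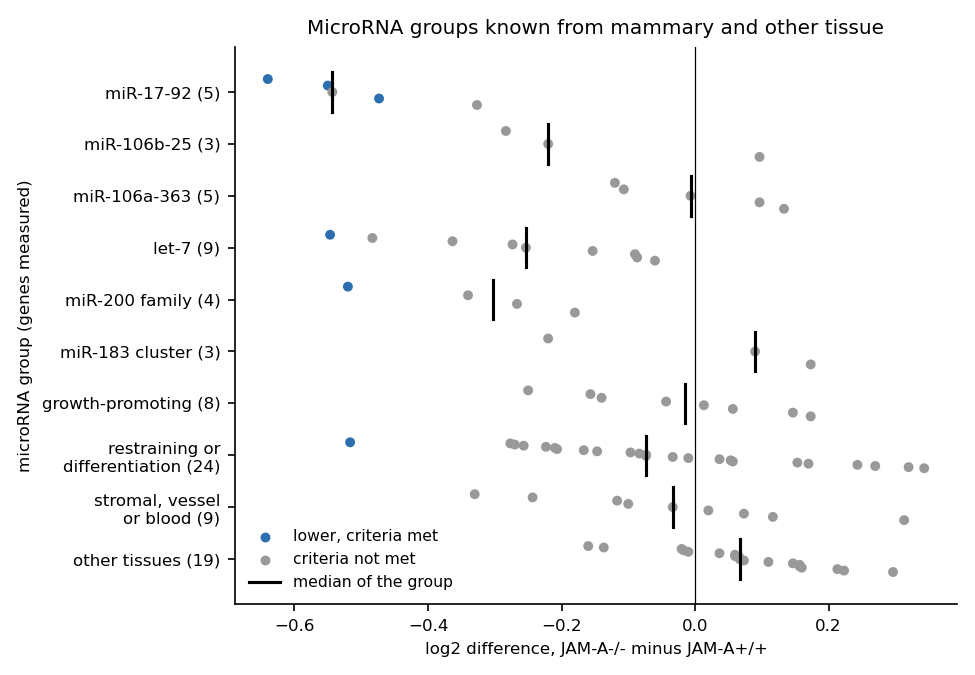
Log2 difference between JAM-A-/- and JAM-A+/+ tumors (horizontal axis) of each measured microRNA gene by group (vertical axis, number measured in parentheses), with blue points for lower calls, grey points for genes that did not meet the criteria and black bars for group medians. All points of miR-17-92, let-7 and the miR-200 family lie left of 0, while the other groups lie on both sides. Of all 296 microRNA genes, 173 had a difference below 0.

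Outside these families the largest difference belonged to Mir687. Its log2 signal was 6.09, 5.81 and 5.68 in JAM-A-/- tumors and 6.71, 7.00 and 6.90 in JAM-A+/+ tumors. The groups were well apart, and the difference of -1.01 ± 0.15 (95% confidence interval -1.35 to -0.67) is a 2.01-fold lower signal. Mir421, within the noncoding Ftx transcript on the X chromosome, had 3.23, 3.18 and 3.49 against 3.76, 3.95 and 4.05 and a difference of -0.62 ± 0.14. Mir365-1 had 5.36, 5.65 and 5.93 against 6.09, 6.30 and 6.29 (-0.58 ± 0.16), and Mir505 had 5.96, 6.19 and 6.15 against 6.44, 6.88 and 6.55 (-0.52 ± 0.15). In each of them the groups did not overlap and the call was kept without any 1 of the 6 tumors, with adjusted p values from 0.198 to 0.335. The dim gene Mir701 had 2.33, 2.43 and 2.79 against 3.19, 3.26 and 2.75, with overlapping groups, and lost its call without tumor 5333, 5346, 5369 or 5370 (differences from -0.71 to -0.45). The remaining lower genes were Mir130b, Mir181b-2, Mir1839, Mir128-1 and Mir148b, with differences from -0.50 to -0.38. Among them the call of Mir130b was kept without any 1 tumor. The others lost it in 1 to 4 of the 6 fits, Mir148b without 5347, 5369 or 5370 (-0.45 to -0.26), Mir128-1 without 5347 (-0.31), Mir181b-2 without 5347, 5369 or 5393 (-0.64 to -0.31) and Mir1839 without 5346, 5347, 5369 or 5393 (-0.68 to -0.32).

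The restraining and differentiation microRNAs had 24 of 31 listed genes measured, with 0 higher and 1 lower by limma and 2 at an unadjusted p under 0.05, and a median difference of -0.07. The lower one was Mir30c-2, which had a log2 signal of 5.90, 6.06 and 6.13 against 6.66, 6.42 and 6.56. The groups did not overlap, and the difference was -0.52 ± 0.12 (adjusted p = 0.272). The highest difference in this list was 0.34, for Mir101b. Of the growth-promoting microRNAs 8 of 10 were measured and 0 met the criteria or had an unadjusted p under 0.05 by limma, with differences from -0.25 for Mir27a to 0.17 for Mir9-1. Mir155, which represses Socs1 in immune cells, had 5.25, 4.89 and 4.93 against 5.28, 4.85 and 4.90, nearly the same range in each group. The 3 genes of the miR-183 cluster had differences of -0.22 to 0.17.

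Both genes higher in JAM-A-/- tumors are dim and lie inside receptor genes on the same strand. Mir490, within the muscarinic receptor gene Chrm2, had a log2 signal of 4.07, 3.72 and 3.99 in JAM-A-/- tumors and of 3.53, 3.39 and 3.18 in JAM-A+/+ tumors. The groups did not overlap, and the difference was 0.56 ± 0.15 (adjusted p = 0.317). Mir452, within the GABA receptor gene Gabre, had 3.22, 3.07 and 3.28 against 2.83, 2.65 and 2.67, a difference of 0.47 ± 0.12 (adjusted p = 0.296). Its cluster neighbour Mir224 had a difference of -0.07. Chrm2 and Gabre themselves had differences of -0.01 and 0.22 and did not meet the criteria. Without tumor 5333 the number of higher microRNA genes was 16 in place of 2 (5.41%), while the higher share of all probe sets was 8.67% in place of 3.95%. Without any other tumor it was 2 or 3.

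Of the microRNA genes, 22 groups share a mature form across loci. In 7 of them 1 locus met the criteria, and the differences of the loci lay 0.14 to 0.73 apart. In the other 15 none did, and they lay 0.02 to 0.42 apart. This split uses the same differences. A wider range in groups with a call follows from it and says nothing more about the loci. Mir103-2 had a log2 signal of 5.58, 5.58 and 5.72 in JAM-A-/- tumors and of 6.42, 6.11 and 6.12 in JAM-A+/+ tumors. The groups did not overlap (difference -0.59 ± 0.13, adjusted p = 0.256). Mir103-1, the other source of miR-103, known to repress Dicer1, had 4.69, 4.70 and 4.66 against 4.28, 4.59 and 4.75, a difference of 0.14. Mir7-1, a source of miR-7a, which represses the Egf receptor, had 7.63, 7.53 and 7.62 against 8.13, 8.10 and 7.90 (-0.45 ± 0.12, adjusted p = 0.311), and Mir7-2, the other source, had 5.81, 5.59 and 5.53 against 5.61, 5.27 and 5.47 (0.19). The pairs Mir30c-1 and Mir30c-2 (-0.03 and -0.52), Mir365-2 and Mir365-1 (-0.12 and -0.58), Mir181b-1 and Mir181b-2 (-0.27 and -0.49), Mir16-2 and Mir16-1 (-0.25 and -0.39) and Mir128-2 and Mir128-1 (-0.27 and -0.42) had the same sign, and in each pair 1 gene met the criteria. The differences between the loci were not tested, and the amount of the shared mature form was not measured.

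Host genes were compared because intronic microRNAs can be processed from the transcript of the gene that contains them. Of 131 microRNA genes inside a gene on the same strand, 96 had a measured host. Across the 96 pairs the differences of microRNA gene and host had a Pearson's r of -0.02 and a Spearman's rho of 0.00, a description over pairs of which some share a host. The median difference was -0.06 for the microRNA genes and 0.10 for their hosts, close to the 0.09 of all probe sets with 1 symbol, and the microRNA gene lay below its host in 73 of 96 pairs. These pairs leave out miR-17-92, because Mir17hg was not matched as a host to Mir17, Mir19a and Mir20a by the definition used. Mir17hg was lower along with these 3 genes. Of the 7 lower microRNA genes among the pairs, 0 had a host that met the criteria, and 5 hosts lay above 0 with the microRNA below it. Mir103-2 is in Pank2, a gene of coenzyme A synthesis, which had 9.95, 10.04 and 10.18 in JAM-A-/- tumors and 9.48, 9.74 and 9.90 in JAM-A+/+ tumors, a difference of 0.35. Mir148b is in the coatomer gene Copz1 (0.36), Mir7-1 in the RNA-binding protein gene Hnrnpk (0.27), Mir130b in 2610318N02Rik (0.27) and Mir701 in Ttc28 (0.13). Dleu2, the noncoding host of Mir15a and Mir16-1, was near the lower end of the array with a mean signal of 2.68 and had a difference of -0.17, and R3hdm1, host of Mir128-1, had -0.13. The 9 microRNA genes inside hosts that were higher did not meet the criteria themselves. Mcm7, a replication licensing gene, was higher by 0.41 with Mir106b, Mir93 and Mir25 at -0.22, -0.28 and 0.10, and the imprinted gene Mest by 0.93 with Mir335 at -0.08. Wwp2, higher by 0.58, had the closest value in its microRNA, Mir140 at 0.47, with overlapping groups and tumor 5346 highest. Host genes are read by many probes along their exons and microRNA genes by few, and the part of this in the differences was not tested.

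**Figure D5:**
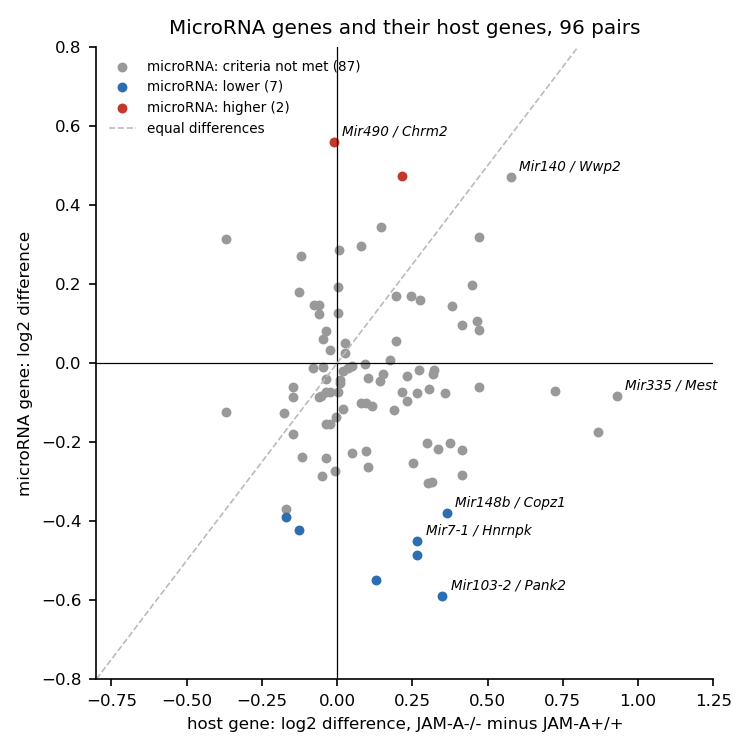
Log2 difference of the microRNA gene (vertical axis) against that of its host gene (horizontal axis) for 96 pairs, coloured by the call of the microRNA gene, with a dashed line where both differences are equal. Most points, 73 of 96, lie below the dashed line, and the 7 lower microRNA genes lie below it at host differences from -0.17 to 0.36.

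The largest cluster on the array, at the imprinted Dlk1-Meg3 region of chromosome 12, gave no call. Its 2 stretches had 30 and 8 measured genes, with median differences of 0.08 and -0.02 and median signals of 3.31 and 5.82. The highest was Mir376a at 0.36. Mir302a, Mir302b, Mir302c, Mir302d and Mir367, the cluster of embryonic stem cells, had mean signals from 2.19 to 2.75, near the lower end of the array, and differences from -0.06 to 0.20.

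MicroRNAs of stroma, vessels and blood cells had 9 of 12 listed genes measured, and 0 met the criteria or had an unadjusted p under 0.05 by limma. Mir145a and Mir143, of smooth muscle and fibroblasts, had differences of -0.33 and -0.12. Mir126a of endothelium had -0.10, Mir150 of lymphocytes 0.07, and Mir144 and Mir451a of erythroid cells 0.31 and 0.12. Marker messenger RNAs of stromal cell types met the criteria only in part. Of all probe sets with 1 symbol 4.57% were higher and 0.647% lower, and of those at a signal of 6 or more 6.53% were higher. Smooth muscle and pericyte markers were higher in 2 of 4, led by Acta2 (0.90), and their summed log2 signal was 10.13 to 10.49 in JAM-A-/- tumors and 9.56 to 9.77 in JAM-A+/+ tumors. Fibroblast markers were higher in 2 of 5, with sums of 13.49 to 13.92 against 12.80 to 13.66, endothelial markers in 1 of 5 (9.55 to 10.01 against 9.10 to 9.77) and skeletal muscle markers in 1 of 5 (10.22 to 11.30 against 9.004 to 10.69). All markers of these 4 lists lay above 0, as did the 5 luminal and 3 basal epithelial markers and 71.0% of all probe sets with 1 symbol, and none was near 0 in signal (lowest mean 5.54, Cnn1). The ranges of the groups were apart for smooth muscle and overlapped in the other lists. Of red cell markers only 1 of 4 was measured (-0.39, criteria not met). Milk genes were lower in 1 of 4, Csn1s1 (-1.70), with sums of 12.93 to 13.43 against 13.28 to 13.99, and no marker of basal epithelium (3), macrophages (4), T cells (3), B cells (2) or adipocytes (4) met the criteria. The part of cell composition in the microRNA differences was not tested.

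The genes that make and use microRNAs gave no call among 26 of 26 measured, with 1 at an unadjusted p under 0.05 by limma and a median difference of 0.07. The smallest p belonged to Xpo5, which exports precursors from the nucleus, with 8.50, 8.58 and 8.75 in JAM-A-/- tumors and 8.20, 8.32 and 8.34 in JAM-A+/+ tumors. All JAM-A-/- values lay above the JAM-A+/+ values (0.32 ± 0.12, adjusted p = 0.418), and its partner Ran had 0.33 ± 0.17. Drosha, Dgcr8 and Dicer1 had differences of 0.23, -0.01 and -0.05, and the Argonaute genes Ago1 to Ago4 of 0.11, 0.25, -0.13 and -0.13. Of 17 listed targets 15 were measured and 0 met the criteria or had an unadjusted p under 0.05 by limma. The median difference was 0.09, equal to that of all probe sets with 1 symbol. Pdcd4, a target of miR-21, had the smallest p (0.41 ± 0.18, adjusted p = 0.466) with 10.23, 9.84 and 10.34 against 9.56, 9.61 and 10.01 and overlapping groups, followed by Hoxd10, a target of miR-10b (-0.16 ± 0.12). Hmga2, a target of let-7, had 6.05, 6.06 and 6.15 against 5.96, 5.95 and 6.04. Its groups did not overlap, but the difference was only 0.10 ± 0.11.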

How the data were processed

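Total RNA from each of 6 mammary tumors was hybridized to an array of its own (Affymetrix Mouse Gene 1.0 ST), and tumors were grouped by title and genotype. The deposited values are log2 signals with 2 decimals, for which the submitters' processing notes name RMA and Affymetrix Expression Console 1.1. RMA scales all arrays to 1 distribution, so total RNA is not measured. Precision is limited by having 3 arrays in a group. The array test of the authors is not given in the sources used here. The criteria of fold 1.3 and p 0.05 were read from the study's signature list.

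All 35557 probe sets were fitted with limma 3.58.1 in R 4.3.3 (defaults, no covariate) and adjusted by Benjamini-Hochberg over all of them. The fit was tested on simulated data. Annotation gave 1 symbol to 21789 probe sets, several to 1621 and none to 12147. Left out were 61 probe sets with several symbols, at least 1 of them a microRNA, such as those of Mir22, Mir429 and Mirlet7b. By the same criteria 1 of them was higher (1.64%), shared by Mir675 and Supt6 (0.77), and 4 were lower (6.56%). The lower ones were those of Mir29c (-0.44) and Mir92-1 (-0.73) and those shared by Mir3084-1, Mir3084-2 and Snora19 (-1.18, identical values). Probe sets shared by the Mir467 genes and by the Mir669 genes also repeat identical values many times, and the shares count each copy. Mir21a, Mir214 and Mir223 had no probe set with 1 symbol. Seeds, clusters (same strand, gaps under 10 kb) and hosts came from RefSeq tables of GRCm38.p6, matched by gene identifier for all 296 genes. A gene without a strand there could not count as a host.

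The microRNA genes and lists were chosen with earlier results of these data known. Named were F11r, up to 12 microRNA genes per direction by size, all members of miR-200, miR-17-92 and let-7, extremes of other groups, hosts, neighbours, and up to 4 genes per further list. The other lower genes, Mirlet7 neighbours, genes of shared seeds and marker genes named go beyond that rule and were chosen after their values were seen. Alternatives were other tests, weights, scalings, filters and leaving out each tumor.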

Additional observations from a re-analysis of the deposited data

How the results depend on the processing

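The 20 lower and 2 higher microRNA genes became 5 and 0 at a fold of at least 1.5. An equal-variance test gave 12 lower genes, the Welch test 8 and centring on array medians 13, while array weights gave 7 higher genes and 1, Mir687, that passed the adjustment. Quantile normalization over listed probe sets gave 1 higher gene, 29 lower ones and a median of -0.10. Without the 40% dimmest probe sets, which left 97 microRNA genes and neither higher one, there were 0 higher and 10 lower genes (10.3%, against 4.58% of all probe sets) with a median difference of -0.093, against 0.023 after centring and -0.033 in the fit reported above. Leaving out each tumor gave 2 to 16 higher and 15 to 25 lower genes, 13 to 18 of them among the 20, while the higher share of all probe sets ran from 2.29% to 8.67% and the lower share from 3.36% to 5.58%. Of the 22 calls 12 were kept without any 1 tumor and 9 under every setting in which the gene was tested. No named gene reversed its sign when its value was called. The cause of these changes was not tested. Of all calls in any probe set 47.6% were higher in the reported fit, 66.4% after centring and 35.6% after quantile normalization over all probe sets. The medians of signal of the known and other microRNA genes moved by less than the spread between tumors in the settings that rescaled the arrays. This does not cover the filter on dim probe sets, which left 97 mostly brighter microRNA genes. No paired analysis was possible because the tumor numbers are not shared between the groups.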
